A study of Mus musculus with 8 samples.

Results

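The unfolded protein response (UPR) and the integrated stress response (ISR) were examined in brown adipose tissue (BAT) through 43 named genes: the chaperones, folding enzymes and degradation machinery of the endoplasmic reticulum (ER), the sensors and transcription factors of both responses, and the stress and amino acid genes downstream of the transcription factor ATF4. Members were taken by gene symbol from the deposited count table of 56953 Ensembl genes. Of the 43 symbols, 42 matched a gene there, and Vldlr-as1 was not analysed here. Of these 42 genes, 30 had enough reads for testing among 9876 tested genes, and 12 lay under the low-count filter of edgeR. Ddit3 has 2 Ensembl entries, and the one described is ENSMUSG00000025408, since the other holds at most 0.83 counts in a library.

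BAT was sequenced from 4 control mice (CTR), given PBS by subcutaneous injection, and 4 mice with cancer-associated cachexia (CAC), given 3000000 Lewis lung carcinoma (LLC) cells under the skin of the right flank. LLC is a mouse lung tumour cell line, and the methods followed mice for 21 days and kept only tumour-bearing animals. Every mouse was wild-type C57BL/6J, 8 to 10 weeks old at injection, male or female, with no sex given per library. Libraries held 2454493 to 4827956 counts in CTR and 1823167 to 3392538 in CAC, and the listed genes held 0.138% to 0.174% of each library, or 3093 to 6655 counts. Brown adipocyte markers such as Ucp1 and Cidea were present in every library, with 9 of 9 markers tested, none at 0, and summed levels of 15760 to 17590 CPM (reads of a gene after scaling every library to the same size) in CTR and 15320 to 17550 in CAC. Of the 9, 6 were higher in CAC, and 1 was called so at an adjusted p under 0.05 (edgeR), against 0.739% of all tested genes. A sum does not show single markers, and the study reported lower Ucp1 mRNA in CAC by qPCR. Summed macrophage markers reached 207 to 232 CPM in CTR and 286 to 405 in CAC, neutrophil markers 6.41 to 6.86 and 164 to 429, skeletal muscle markers 1194 to 2924 and 2604 to 4826, and erythroid markers 6119 to 19080 and 14490 to 43890. The neutrophil list includes S100a8 and S100a9, and 3 of its 9 markers were tested. The study proposes brown adipocytes as the main source of S100A9 in CAC BAT, and it found no significant difference in neutrophil counts. The ranges of the groups did not overlap for macrophage and neutrophil markers and overlapped for muscle and erythroid markers. Even so, 10 of 10 tested muscle markers and 6 of 6 erythroid markers were higher in CAC. Their median log2 fold changes (CAC against CTR) were 1.01 and 1.56, beside 0 over all tested genes. The part of the cells named by these markers in the results on the stress genes was not tested.

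When unfolded proteins build up in the ER lumen, the membrane sensors IRE1 (Ern1), ATF6 and PERK (Eif2ak3) signal to the nucleus. IRE1 splices Xbp1 mRNA, ATF6 is cut to release a transcription factor, and both raise transcription of chaperones and of the genes of ER-associated degradation (ERAD). PERK and the amino acid sensor GCN2 (Eif2ak4) instead phosphorylate the translation factor eIF2, which lowers general protein synthesis while favouring translation of Atf4 mRNA, and ATF4 then drives genes for amino acid synthesis and transport. Splicing of Xbp1, cleavage of ATF6 and translation of Atf4 are not read by counts of mRNA per gene.

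Promoters were searched for the sequence elements known from each arm. RefSeq promoters of GRCm38.p6, each of 300 bases from 250 before to 50 after the gene start, were at hand for 36 of the genes, and a gene was counted where any of its windows held a motif. The ER stress response element (ERSE, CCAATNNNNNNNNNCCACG, either strand) was present in 9 of the 36 genes (25%) and in 0.119% of all 32851 promoters, namely Hspa5, Hsp90b1, Calr, Canx, Dnajc3, Creld2, Pdia6, Syvn1 and Derl3. Its relative ERSE-II (ATTGGNCCACG) was present in Dnajb11 and Herpud1 (5.56% of the 36, against 0.0365% of all promoters). The C/EBP-ATF response element, TGATGNAA, was present in Asns, Trib3, Chac1 and Herpud1 (11.1%, against 3.97% of all promoters), and the UPR element TGACGTGG in 0 of 36, against 0.676% of all promoters. No motif of these 4 was found in 22 of the 36 genes. Matches describe letters in these windows and not binding. The chaperone and degradation promoters whose genes carry most of the values below are shown on the strand of each gene, with the motif in capitals, reversed where it lies on the opposite strand:

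Hspa5 (chr2:34772020-34772048, plus strand): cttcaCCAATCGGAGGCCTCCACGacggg

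Hsp90b1, distal copy (chr10:86705623-86705671, minus strand): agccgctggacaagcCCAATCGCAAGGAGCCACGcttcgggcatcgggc

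Hsp90b1, proximal copy (chr10:86705518-86705566, minus strand): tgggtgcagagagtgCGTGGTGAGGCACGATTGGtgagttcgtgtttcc

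Calr (chr8:84847060-84847108, minus strand): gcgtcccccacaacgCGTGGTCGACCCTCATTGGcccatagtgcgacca

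Canx (chr11:50325785-50325833, minus strand): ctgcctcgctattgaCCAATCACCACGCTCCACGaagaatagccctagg

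Dnajc3 (chr14:118937812-118937860, plus strand): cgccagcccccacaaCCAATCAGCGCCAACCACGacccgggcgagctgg

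Pdia6 (chr12:17266476-17266524, plus strand): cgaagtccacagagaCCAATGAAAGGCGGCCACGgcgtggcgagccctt

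Syvn1 (chr19:6046517-6046565, plus strand): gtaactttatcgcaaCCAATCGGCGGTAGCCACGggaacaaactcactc

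Herpud1, ERSE-II (chr8:94386362-94386402, plus strand): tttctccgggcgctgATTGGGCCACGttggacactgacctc

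The C/EBP-ATF response elements before the start of Asns, Chac1 and Herpud1, of which Herpud1 held motifs of both arms, read as follows, again with the motif in capitals, while that of Trib3 lies after the gene start and is not shown:

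Asns (chr6:7693214-7693243, minus strand): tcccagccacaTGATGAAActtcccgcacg

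Chac1 (chr2:119351034-119351071, plus strand): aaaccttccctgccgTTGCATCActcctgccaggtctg

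Herpud1 (chr8:94386302-94386339, plus strand): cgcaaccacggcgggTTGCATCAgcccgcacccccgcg

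The stretches of Hspa5 and Asns lie before the RefSeq start but inside the longer gene model of GENCODE M21, and the others lie before both starts.

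CAC BAT showed no detectable shift of the ER stress and ISR genes in either direction. With edgeR's quasi-likelihood test and Benjamini-Hochberg adjustment over all tested genes, 0 of 30 members were higher in CAC at an adjusted p under 0.05, against 0.739% of all tested genes, and 0 were lower, against 0.192%. Without adjustment, 0 of 30 were higher at a p under 0.05 against 7.01% of all tested genes, and 0 were lower against 5.93%. DESeq2 and limma gave the same counts of 0, adjusted and unadjusted. In 0 of the 30 genes did the 4 CAC libraries lie wholly above the CTR libraries (3.65% of all tested genes) or wholly below them (3.4%). The log2 fold change (CAC against CTR) was positive for 17 and negative for 13 of the members (43.3%, against 50% of all tested genes), with a median of 0.07 and a range of -0.45 for Hyou1 to 0.31 for Atf6. In bulk tissue, fewer cells of a type and less RNA per cell cannot be told apart, so each level is an average over the cells of the sample.

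These data also bound the changes they could hold. All 30 of the 95% intervals of the log2 fold change included 0, and 28 lay within -1 and 1, the exceptions being Syvn1 and Eif2ak4. For 12 genes the interval lay within -0.5 and 0.5. Precision followed expression level. The median standard error was 0.13 for the 15 members with at least 20 CPM and 0.27 for the 15 members below that. Single libraries weighed on these small estimates: leaving out each library in turn moved 27 of the 30 by more than 1.5 times or through 0, the exceptions being Canx, Hyou1 and Syvn1, with estimates from -0.62 (Hyou1) to 0.59 (Psat1) over these fits and none called.

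**Figure D1:**
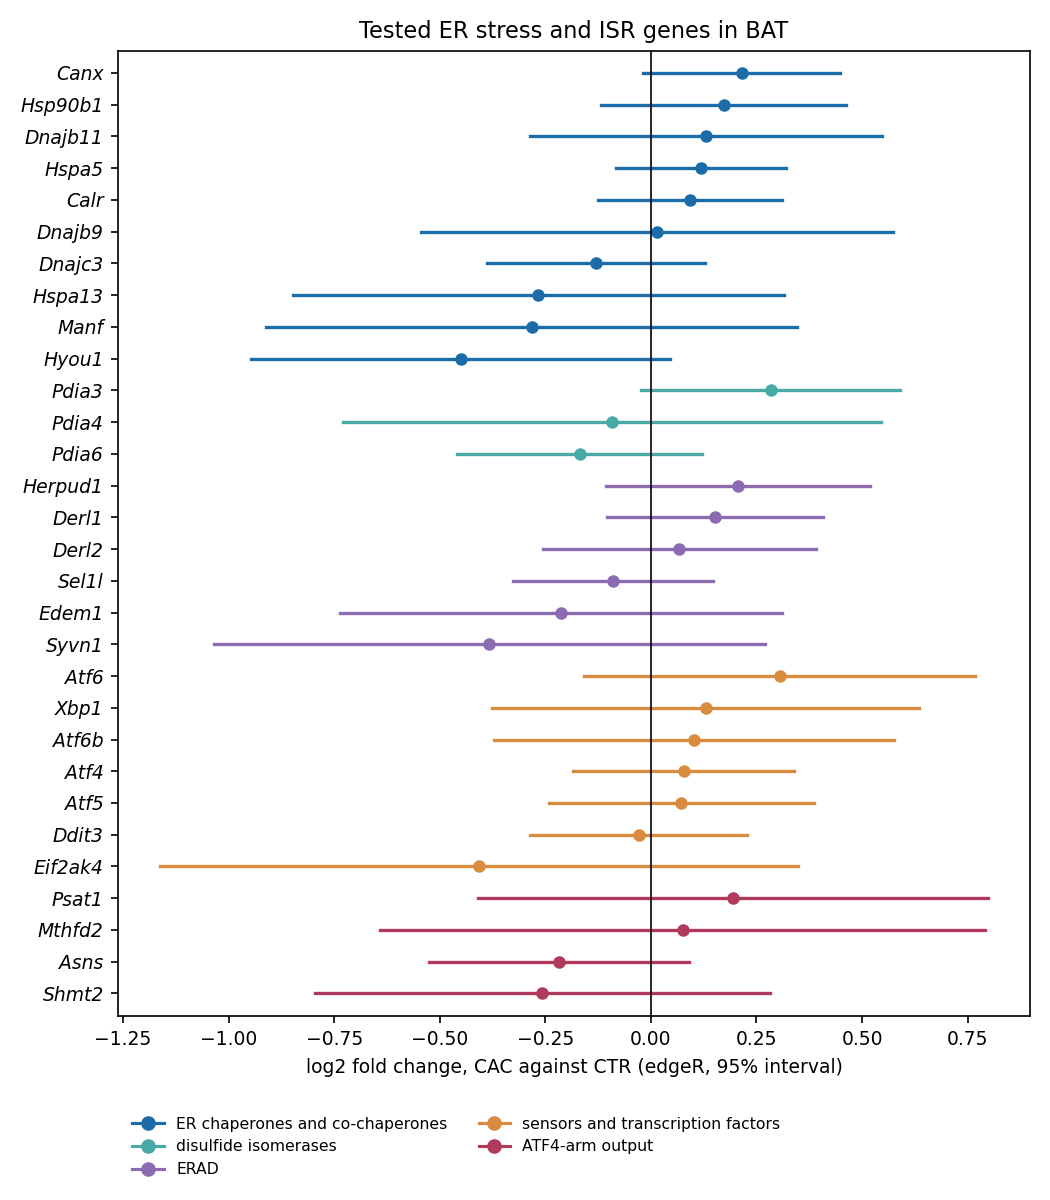
Log2 fold change of CAC against CTR (x axis) for the 30 tested ER stress and ISR genes (y axis), coloured by role. Points are edgeR estimates and lines their 95% intervals, from 4 libraries per group. Every line crosses 0, and estimates run from -0.45 (Hyou1) to 0.31 (Atf6).

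Hspa5 encodes BiP, the main ER lumen chaperone and the classical readout of the UPR. In CTR libraries 1 to 4 it stood at 429, 394, 386 and 390 CPM, and in CAC libraries 1 to 4 at 500.0, 446, 387 and 405 CPM. The ranges overlapped, since CAC libraries 3 and 4 lay below CTR library 1. The CTR mean was 399.7 ± 19.5 CPM and the CAC mean 434 ± 50.03 CPM (SD, 4 libraries each), a log2 fold change of 0.12 ± 0.10 (SE) with a 95% interval of -0.08 to 0.32 (edgeR adjusted p = 0.657). A doubling of this transcript, a log2 fold change of 1, therefore lies outside the interval. The estimate was 0.052 without CAC library 1 and 0.17 without CAC library 3.

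Hsp90b1, which encodes the ER member GRP94 of the HSP90 family, read 53.1, 51.7, 39.9 and 54.2 CPM in CTR and 49.8, 45.3, 70.2 and 57.3 CPM in CAC. The libraries of both groups interleaved, with a log2 fold change of 0.17 (interval -0.12 to 0.46, edgeR adjusted p = 0.654), which was 0.030 without CAC library 3 and 0.25 without CAC library 2. Its values hold fractions of reads in 6 of 8 libraries. The gene overlaps Gm15344 and Gm25745 on the same strand and 1810014B01Rik on the other strand. Calr and Canx encode calreticulin and calnexin, the lectin chaperones that retain newly made glycoproteins. Calr averaged 100.0 ± 6.38 CPM in CTR and 106 ± 7.73 in CAC (log2 fold change 0.09, interval -0.13 to 0.31).

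Canx was among the 3 members with the smallest p. It read 83.4, 83.3, 69.0 and 79.9 CPM in CTR and 104, 93.7, 83.3 and 87.3 CPM in CAC. All 4 CAC libraries lay above the CTR mean of 78.9, but the lowest of them lay under the highest CTR library. Its log2 fold change was 0.21 ± 0.11 (SE), with an interval of -0.02 to 0.45 and an unadjusted p of 0.0706 in edgeR (adjusted p = 0.435).

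Hyou1, an HSP110-like chaperone that exchanges nucleotide on BiP, had the most negative estimate of the list. CTR libraries read 12.5, 7.65, 12.3 and 13.3 CPM, and CAC libraries 5.35, 8.95, 8.71 and 9.67 CPM. All 4 CAC libraries were below the CTR mean of 11.4, while CTR library 2 lay inside the CAC range. The log2 fold change was -0.45 ± 0.24 (SE), with an interval of -0.95 to 0.05 and an unadjusted p of 0.0733 in edgeR (adjusted p = 0.44). Leaving out single libraries, it ranged from -0.62 without CTR library 2 (edgeR unadjusted p = 0.0162, adjusted p = 0.349) to -0.32 without CAC library 1 (edgeR adjusted p = 0.633).

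The J-domain co-chaperones, which hand substrates to BiP, were near 0. Dnajb9 had a log2 fold change of 0.01, Dnajb11 of 0.13 and Dnajc3 of -0.13. The sign of Dnajb9 changed with the processing. Hspa13, another HSP70 family member, had a log2 fold change of -0.27, with 6.10 ± 1.20 CPM in CTR and 5.10 ± 1.33 in CAC. Manf, a secreted factor induced by ER stress, gave -0.28 with an interval of -0.91 to 0.35, and ranged from -0.46 without CTR library 3 to -0.048 without CAC library 3. Over the 10 tested chaperones and co-chaperones the median log2 fold change was 0.05, with 6 positive and 4 negative and none called, beside a median of 0 over all tested genes.

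Sdf2l1 and Creld2, ER proteins that respond to ER stress, lay under the low-count filter and were compared by a two-sided exact permutation test of log2 CPM over 70 assignments of the libraries, whose smallest p is 0.0286. Sdf2l1 had 3, 4, 4 and 4 counts in CTR and 2, 4, 8 and 10 counts in CAC, or 1.07, 1.06, 1.64 and 0.873 CPM against 1.07, 2.11, 2.32 and 3.45 CPM. Of the CAC libraries, 3 lay above every CTR library, and the exact permutation p was 0.0571. Creld2 had 33 counts over the CTR libraries and 21 over the CAC libraries, or means of 2.54 and 2.13 CPM (exact permutation p = 0.514). Counts as low as these limit what can be detected, and the size of change they could show was not tested.

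Of the protein disulfide isomerases, which form and rearrange disulfide bonds in the ER, Pdia3 had the smallest unadjusted p of the whole list. It read 29.2, 32.7, 35.3 and 39.3 CPM in CTR and 31.1, 40.6, 51.7 and 41.4 CPM in CAC. CAC libraries 2 to 4 lay above every CTR library, and CAC library 1 lay within the CTR range. The log2 fold change was 0.28 ± 0.15 (SE), with an interval of -0.02 to 0.59 and an unadjusted p of 0.0688 in edgeR (adjusted p = 0.43). With 1 library left out in turn it ranged from 0.14 without CAC library 3 (edgeR adjusted p = 0.757) to 0.39 without CAC library 1 (edgeR unadjusted p = 0.0121, adjusted p = 0.212). Catsper2 overlaps Pdia3 on the other strand, and strand use in counting is not given in the sources used here.

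The other isomerases had estimates of the opposite sign. Pdia4 gave a log2 fold change of -0.09 and Pdia6 of -0.17 (interval -0.46 to 0.12). The sign for Pdia4 was not stable, from -0.44 without CAC library 3 to 0.078 without CTR library 4. Pdia6 averaged 45.9 ± 6.44 CPM in CTR and 40.8 ± 6.47 in CAC, holds fractions of reads in all 8 libraries and overlaps Atp6v1c2. The 13 tested chaperones and isomerases together had a median log2 fold change of 0.01, with 7 positive and 6 negative. Among genes with an ERSE, the 7 tested members split into 4 positive and 3 negative estimates, with a median of 0.09 and a range of -0.38 (Syvn1) to 0.21 (Canx). Plasma and B cells, whose antibody output makes them rich in ER chaperones, had summed marker levels of 28.0 to 52.7 CPM in CTR and 34.8 to 42.8 in CAC, with 3 of 11 markers tested and none called.

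**Figure D2:**
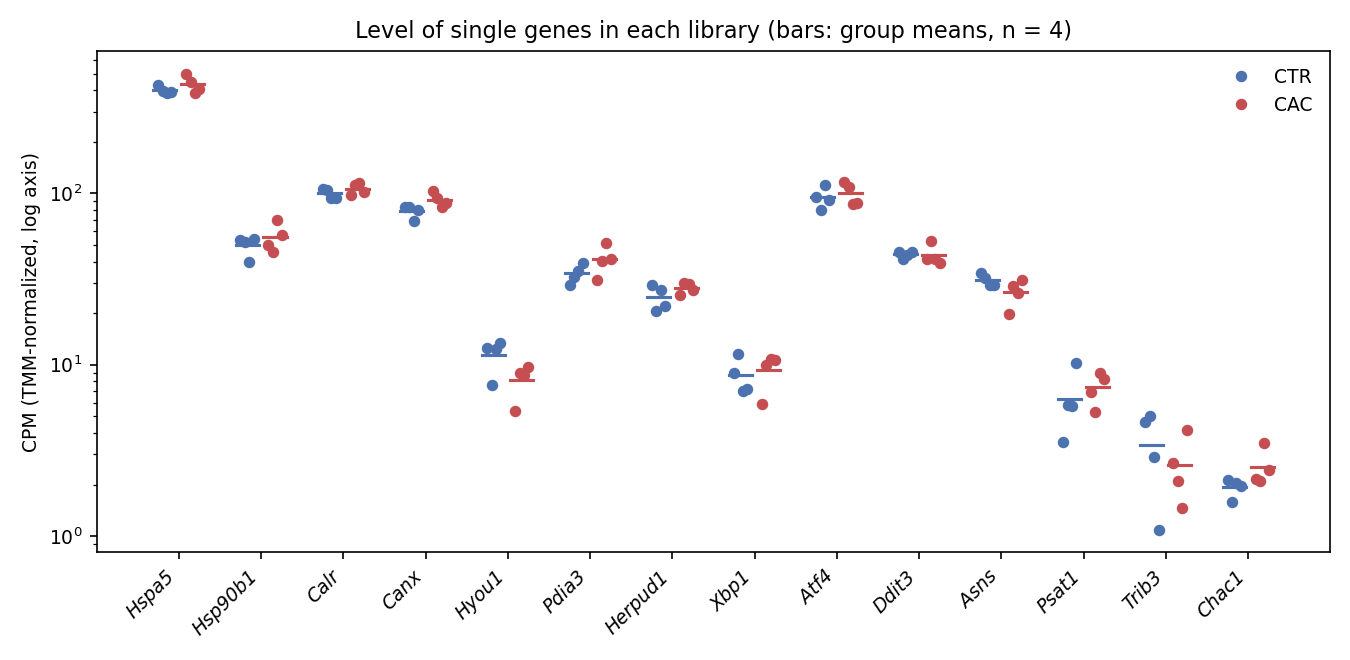
CPM on a log axis (y) of 14 ER stress and ISR genes (x), with 1 point per library and a bar at each group mean (n = 4 per group). CTR and CAC points overlap in every gene shown, including Hspa5 (386 to 429 CPM in CTR, 387 to 500.0 in CAC).

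ERAD carries misfolded proteins out of the ER for destruction by the proteasome. Herpud1, an adaptor of the retrotranslocation complex whose promoter held motifs of both arms, read 29.2, 20.6, 27.1 and 22.1 CPM in CTR and 25.7, 30.01, 29.6 and 27.3 CPM in CAC. Each CAC library was above the CTR mean of 24.7, but only 2 of them exceeded the highest CTR library. The log2 fold change was 0.21 ± 0.15 (SE), with an interval of -0.11 to 0.52 (edgeR adjusted p = 0.608).

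The ubiquitin ligase HRD1 (Syvn1) and its partner Sel1l form the core of this pathway. Syvn1 read 5.34, 4.75, 4.11 and 3.49 CPM in CTR and 2.68, 3.16, 4.06 and 3.11 CPM in CAC. In CAC, 3 libraries lay below every CTR library, and the fourth lay within the CTR range. Its log2 fold change of -0.38 had a wide interval of -1.04 to 0.27 (edgeR adjusted p = 0.658). Sel1l, with 73.3 ± 6.78 CPM in CTR and 68.9 ± 6.10 in CAC, was measured more closely, at -0.09 (interval -0.33 to 0.15).

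Derlins are membrane proteins of the retrotranslocation channel. Derl1 had 227 ± 26.2 CPM in CTR and 253 ± 45.3 in CAC (log2 fold change 0.15, interval -0.10 to 0.41), and Derl2 gave 0.07. Derl3 had 1 count in a single CTR library and 1 count in a single CAC library, so no fold is given. Edem1, a mannosidase-like protein that extracts glycoproteins from the folding cycle, gave -0.21, with all 4 CAC libraries (6.38 to 7.37 CPM) within the CTR range of 4.63 to 9.49. Over the 6 tested ERAD genes the median was -0.01, with 3 positive and 3 negative and none called.

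Atf6, the sensor that is itself cut to a transcription factor, had the most positive log2 fold change of the list. It read 18.2, 11.3, 11.1 and 9.39 CPM in CTR and 11.2, 20.01, 14.5 and 15.2 CPM in CAC. CTR library 1 stood above 3 of the CAC libraries, and CAC library 1 stood among the CTR libraries. The estimate was 0.31 ± 0.22 (SE), with an interval of -0.16 to 0.77 (edgeR adjusted p = 0.609). It ranged from 0.17 without CAC library 2 (edgeR adjusted p = 0.84), with 0.18 without CTR library 4, to 0.53 without CTR library 1 (edgeR unadjusted p = 0.0261, adjusted p = 0.4). Its relative Atf6b gave 0.10 (interval -0.37 to 0.57).

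Xbp1 totals, which count spliced and unspliced mRNA alike, were 8.91, 11.6, 6.99 and 7.21 CPM in CTR and 5.89, 10.0, 10.7 and 10.7 CPM in CAC. CAC library 1 was the lowest of all 8 libraries and the other CAC libraries lay within the CTR range, for a log2 fold change of 0.13 (interval -0.38 to 0.64). Ern1, its splicing enzyme, had 30 counts in CTR and 20 in CAC over 4 libraries each. Scaled to library size, its means were 2.14 and 1.93 CPM (exact permutation p = 0.857).

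Of the eIF2 kinases, PERK (Eif2ak3) read 4.28, 2.64, 2.47 and 1.75 CPM in CTR and 2.14, 2.11, 1.74 and 0.690 CPM in CAC, from 36 and 16.5 counts in all. All 4 CAC libraries lay below the CTR mean of 2.78, and 2 of them lay within the CTR range. The difference of mean log2 CPM was -0.57, with a two-sided exact permutation p of 0.114. GCN2 (Eif2ak4) had a log2 fold change of -0.41 with the widest interval of the list, -1.16 to 0.35 (edgeR adjusted p = 0.692), and was -0.58 without CTR library 2 and -0.19 without CTR library 4.

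Atf4 mRNA was 95.5, 80.2, 111 and 91.3 CPM in CTR and 116, 109, 87.1 and 88.0 CPM in CAC. CAC libraries fell on both sides of the CTR mean, 2 above and 2 below. The log2 fold change was 0.08 ± 0.13 (SE), with an interval of -0.18 to 0.34 (edgeR adjusted p = 0.857), and ranged from 0.0028 without CTR library 2 to 0.16 without CTR library 3. Ddit3 encodes CHOP, a pro-apoptotic factor downstream of ATF4, and read 45.6, 41.7, 44.0 and 45.6 CPM in CTR and 41.2, 52.7, 41.2 and 39.4 CPM in CAC. In CAC, 3 libraries lay below every CTR library and library 2 above all of them, for a log2 fold change of -0.03 (interval -0.29 to 0.23). Ddit3 overlaps Mars and Gm4189 on the other strand. Atf5, a further transcription factor of the arm, gave 0.07 (interval -0.24 to 0.39) and overlaps Nup62 and Il4i1. Over the 7 tested sensors and transcription factors the median was 0.08, with 5 positive and 2 negative and none called.

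The ATF4 arm ends in genes for amino acid supply and stress feedback. Asns, asparagine synthetase, read 34.2, 31.9, 29.2 and 29.0 CPM in CTR and 19.8, 29.0, 26.1 and 31.1 CPM in CAC. CAC libraries 1 to 3 lay below every CTR library, library 2 by a narrow margin, and CAC library 4 lay within the CTR range. The log2 fold change was -0.22 ± 0.15 (SE), with an interval of -0.52 to 0.09 (edgeR adjusted p = 0.573). It was -0.30 without CAC library 4 and -0.11 without CAC library 1, the lowest library.

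Psat1, a phosphoserine aminotransferase of the serine pathway, read 3.56, 5.80, 5.75 and 10.3 CPM in CTR and 6.96, 5.27, 8.995 and 8.29 CPM in CAC. All of the CAC libraries lay within the CTR range, for a log2 fold change of 0.19 (interval -0.41 to 0.80, edgeR adjusted p = 0.844). Single libraries weighed on this estimate, which was 0.02 without CTR library 1 and 0.59 without CTR library 4 (edgeR adjusted p = 0.395). The mitochondrial folate enzymes Shmt2 and Mthfd2 gave -0.26 (interval -0.79 to 0.28) and 0.08 (interval -0.64 to 0.79). Over these 4 tested genes of the arm the median was -0.07, with 2 positive and 2 negative and none called.

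Trib3, a pseudokinase that restrains ATF4, had 4.63, 5.01, 2.88 and 1.09 CPM in CTR and 2.68, 2.11, 1.45 and 4.14 CPM in CAC, from 44.3 and 25.8 counts in all. Every CAC library lay within the CTR range (exact permutation p = 0.571). Chac1, which degrades glutathione, read 2.14, 1.58, 2.06 and 1.97 CPM in CTR and 2.14, 2.11, 3.48 and 2.42 CPM in CAC, from 26 and 27 counts. CAC libraries 3 and 4 stood above every CTR library and libraries 1 and 2 were level with the highest of them, and the difference of mean log2 CPM was 0.28 (two-sided exact permutation p = 0.0571, where 0.0286 is the smallest possible).

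The remaining genes of the arm were sparse. Their counts are totals over the 4 libraries of a group, not scaled to library size, whereas CPM and the permutation tests are scaled. Sesn2, a sestrin that restrains mTORC1, had 22 counts in CTR and 25 in CAC, or means of 1.49 and 2.47 CPM. The difference of its mean log2 CPM was 0.55 (exact permutation p = 0.143). Ppp1r15a, the GADD34 subunit that leads eIF2 dephosphorylation, had 27 and 20.5 counts. After scaling it averaged 1.98 CPM in CTR and 2.16 in CAC (exact permutation p = 0.486). Phgdh, the first enzyme of serine synthesis, had 22.3 and 13.7 counts, or means of 1.53 and 1.29 CPM (exact permutation p = 0.571). Aldh1l2, a mitochondrial folate enzyme, had 1.5 counts in CTR and 5 in CAC, at most 2.5 in any library, so no fold is given. Gdf15, a stress hormone that acts on appetite, had 0 counts in every library. A count of 0 allows up to 3 counts, or 0.655 to 1.61 CPM across libraries, a limit that covers counting error only.

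ER chaperones and ATF4 targets were then compared within each library. For every gene the log2 CPM was taken relative to its mean over the 8 libraries, and averaged over the 15 chaperones and isomerases and over Asns, Trib3, Chac1 and Psat1. The chaperone level was 0.03, 0.02, -0.03 and -0.02 in CTR libraries 1 to 4 and -0.09, -0.06, 0.0080 and 0.14 in CAC libraries 1 to 4. CAC libraries spread on both sides of the CTR libraries, so the difference of means was -0.0026 while the SD was 0.03 in CTR and 0.10 in CAC. The 4 ATF4 targets stood at 0.02, 0.10, -0.04 and -0.11 in CTR and at -0.12, -0.15, 0.04 and 0.26 in CAC. Means of the ATF4 targets again hardly differed (0.01), with an SD of 0.09 in CTR and 0.19 in CAC, and CAC library 4 stood highest in both classes.

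The chaperone level minus the ATF4-target level was 0.0074, -0.08, 0.0076 and 0.09 in CTR and 0.03, 0.09, -0.03 and -0.12 in CAC. The groups overlapped, with means of 0.0078 ± 0.07 in CTR and -0.0078 ± 0.09 in CAC (SD, n = 4 each) and a difference of -0.02, smaller than the SD of either group. Leaving out 1 library at a time moved this difference from -0.048 without CAC library 2 to 0.022 without CAC library 4. Trib3 and Chac1, 2 of the 4 targets, lie under the low-count filter, as do Sdf2l1 and Creld2 of the chaperones, which limits the comparison. No divergence of the ER folding arm from these targets was detectable on this log2 scale. Over all 11 ATF4-arm genes the level of the arm differed by 0.09, against SDs of 0.07 in CTR and 0.13 in CAC. Without Gdf15 and Aldh1l2, which had at most 3 counts in every library and were left out after seeing the data, the 9 other genes differed by 0.04, against SDs of 0.08 in CTR and 0.11 in CAC. The 6 ERAD genes above the same floor differed by -0.03 and sensors and transcription factors by -0.04, each by less than the SD of either group. The levels of the arm and of the sensors include genes under the low-count filter, which the medians of tested genes leave out. Those medians had the opposite sign, at -0.07 for the arm and 0.08 for the sensors and transcription factors. Spread was larger in CAC for 20 of the 30 tested members (66.7%), beside 61.4% of all tested genes.

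**Figure D3:**
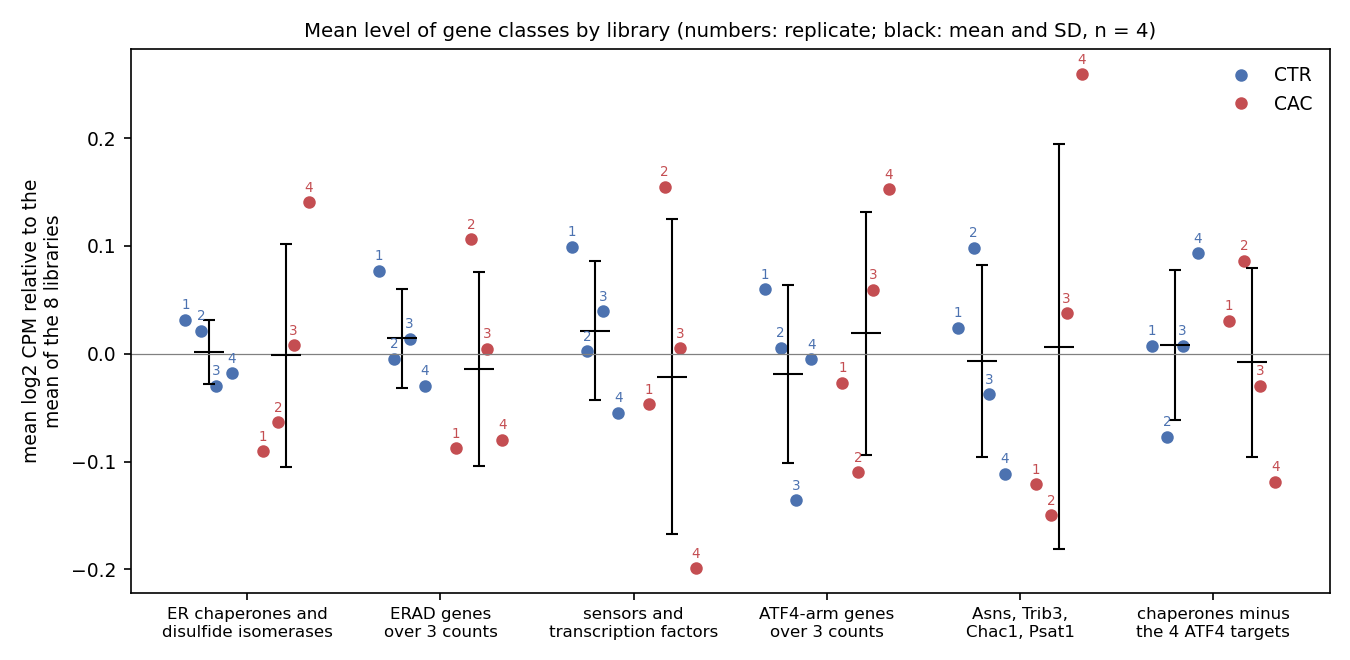
Mean log2 CPM of each gene class relative to the mean of the 8 libraries (y axis) in each CTR and CAC library, numbered by replicate, with the group mean and SD in black (n = 4 per group). Both groups centre near 0 for chaperones (difference -0.0026) and for the 4 ATF4 targets (0.01), and the last column gives the first class minus those targets. ERAD and ATF4-arm genes with at most 3 counts in every library are left out.

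Further genes of the same pathways were taken from a list of 131 symbols, alternative names included, of which 122 were in the table and 99 were tested. None was called at an adjusted p under 0.05 in edgeR, DESeq2 or limma, the estimates split into 49 positive and 50 negative, and the median was -0.01. At an unadjusted p under 0.05 in edgeR, 3 were higher and 3 lower, or 3.03% each, below the 7.01% and 5.93% of all tested genes, so the genes named next do not set this list apart. The CAC libraries lay wholly above the CTR libraries for 2 of the 99 (Eif2b2 and Uggt1) and wholly below them for 1 (Selenok), smaller shares than the 3.65% and 3.4% of all tested genes. Medians were 0.01 for 38 tested genes of ER folding, translocation and glycosylation, 9e-04 for 18 of ERAD and quality control, -0.13 for 21 of UPR and ISR control, and 0.02 for 22 ATF4 targets in amino acid supply.

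Slc3a2, the shared heavy chain of several amino acid transporters, had the smallest p of the wider list. It averaged 54.3 ± 7.43 CPM in CTR and 73.0 ± 12.0 in CAC, a log2 fold change of 0.42 ± 0.13 (SE) with an edgeR adjusted p of 0.147. Without CAC library 1 its edgeR adjusted p was 0.0486 and its log2 fold change 0.52. Its counts hold fractions of reads in all 8 libraries. Slc7a1, a carrier of cationic amino acids, averaged 2.17 ± 1.07 CPM in CTR and 4.46 ± 1.10 in CAC (log2 fold change 1.03, edgeR adjusted p = 0.246).

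Eif2b2, a subunit of the eIF2 exchange factor on which the ISR acts, was at 19.7 ± 2.53 CPM in CTR and 26.1 ± 2.53 in CAC (log2 fold change 0.40, edgeR adjusted p = 0.257). Lower estimates with an unadjusted p under 0.05 were those of Ssr2 of the translocon-associated complex (-0.53, edgeR adjusted p = 0.28), Herpud2 (-0.67, adjusted p = 0.307) and the ER membrane factor Creb3 (-0.56, adjusted p = 0.348). The next genes by p in each class were Eprs (0.21), Rpn1 (0.24), Txndc5 (-0.54), Selenok (-0.18), Selenos (0.17) and Cebpb (-0.32), with adjusted p-values of 0.418 to 0.664 in edgeR. For these 6 genes the 95% intervals included 0.

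**Figure D4:**
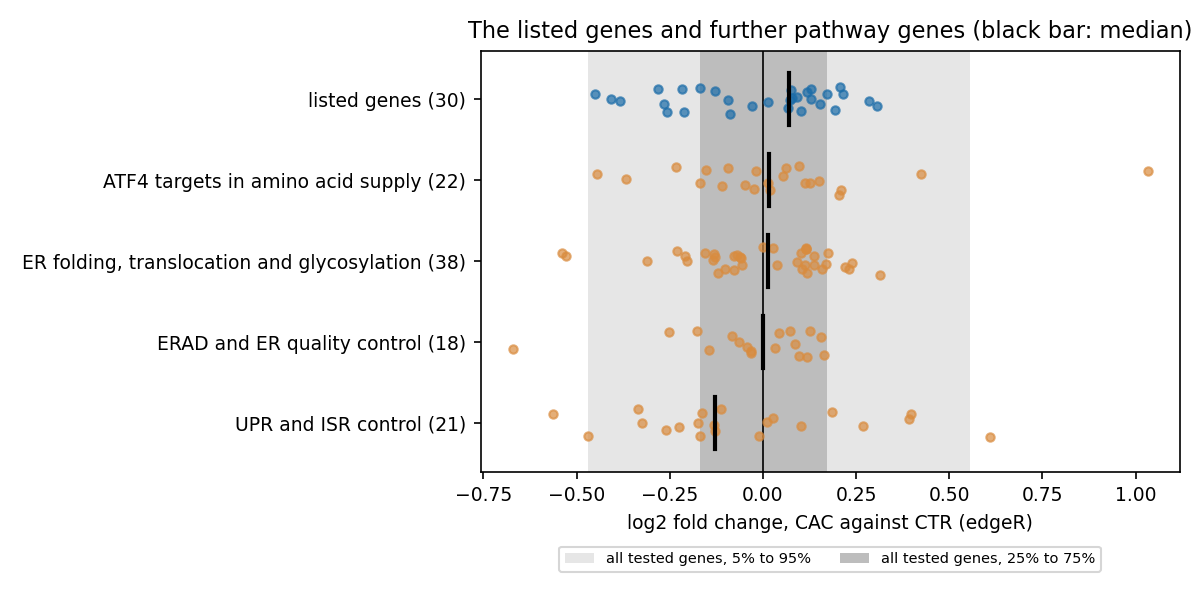
Log2 fold change of CAC against CTR (x axis) for the 30 tested listed genes and the 99 tested further genes by class (y axis), with 1 point per gene and a black bar at the class median. Grey bands span the middle 50% (-0.17 to 0.17) and the 5% to 95% range (-0.47 to 0.55) of all 9876 tested genes, and all 30 listed genes lie inside the wider band.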

How the data were processed

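BAT RNA was sequenced on a NovaSeq (single-end) and, per the labels and the study's methods, reads were checked with FastQC 0.11.9, aligned to mm10 with HISAT2 2.2.1 and counted by featureCounts with its multi-mapping option. The authors deposited expected counts (25.1% to 28.4% of nonzero values are fractions) and a normalised signal for 24792 genes made with DESeq2. That signal matched the count without decimals divided by a size factor.

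Expected counts were rounded and tested in edgeR 4.0.16 (R 4.3.3) with filterByExpr, TMM, glmQLFit (robust) and glmQLFTest for CAC relative to CTR without covariates, and Benjamini-Hochberg adjustment over 9876 genes, at a threshold of 0.05. CPM use TMM, and class levels use log2 CPM with a prior count of 2. The script was tested on simulated data. Libraries held 1823167 to 4827956 counts, and intervals are at 95%. The labels state separate samples, so p-values measure the spread between these samples.

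Every member is named, and from the wider list the 3 genes with the smallest p per class. Members and lists were chosen with earlier results of these data known. Coordinates and overlaps are those of GENCODE M21 (GRCm38), matched by Ensembl ID without version (91.4% of IDs). Alternatives were DESeq2 1.42.0, limma 3.58.1 on the deposited signal plus 1, other scalings and filters, the replicate block, other gene choices for the class level and each library left out. Plots used matplotlib 3.10.9, and tables pandas 2.3.3 with numpy 2.4.6 in Python 3.11.15. The qPCR, protein and secretome data were not analysed here.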

Additional observations from a re-analysis of the deposited data

Results flagged for a closer look

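In 4 of 78 sets of 4 libraries (a gene or class level in a group), 1 library stood apart from the other 3 by Dixon's test, where chance gives about 1 in 20, or 3.9. Hspa5 was at 428.6 CPM in CTR replicate 1 and at 386 to 394 CPM in the other CTR libraries. Sel1l was at 83.4 CPM in the same library and at 68.6 to 71.1 CPM in the others. Xbp1 was at 5.89 CPM in CAC replicate 1 and at 10.0 to 10.7 CPM in the other CAC libraries. Ddit3 was at 52.7 CPM in CAC replicate 2 and at 39.4 to 41.2 CPM in the others.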

How the results depend on the processing

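Across the alternatives no member was called at an adjusted p under 0.05, and the smallest adjusted p of a member was 0.212 (Pdia3 without CAC replicate 1, edgeR). Without the low-count filter, 1 member was higher (Aldh1l2, under the floor of 3 counts) and 1 lower (Hyou1) at an unadjusted p under 0.05, the median of the ATF4-arm genes was 0.10, and Dnajb9 was -0.0098. With at least 10 counts in every library, the medians were 0.12 for chaperones and isomerases and 0.065 for ERAD, over fewer genes. With limma on the deposited signal, the chaperone median and Dnajb9 were both -0.085, and with upper quartile scaling Dnajb9 was -0.0066. With all ATF4-arm genes in place of the 4 targets, the chaperone minus ATF4 difference was -0.10, and without Gdf15 and Aldh1l2, which lie at or under 3 counts, it was -0.04, an alternative chosen after seeing the data.

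With each library left out in turn, 0 to 1 members were higher and 0 to 1 lower at an unadjusted p under 0.05, namely Atf6, Pdia3, Canx or Derl1 higher and Hyou1 lower, and 0 to 1 wider genes were called (Slc3a2, without CAC replicate 1). Medians then ranged from -0.098 to 0.078 for chaperones and isomerases, from -0.084 to 0.067 for ERAD, and from -0.25 to -0.062 for the ATF4 arm. Signs changed for 6 members, whose log2 fold changes ranged from -0.23 to 0.20 for Dnajb9, -0.064 to 0.19 for Atf5, -0.051 to 0.16 for Derl2, -0.44 to 0.078 for Pdia4, -0.19 to 0.21 for Mthfd2 and -0.12 to 0.024 for Ddit3. The chaperone minus ATF4-target difference ranged from -0.048 to 0.022. The causes were not tested. The other 484 of 502 member values kept their sign.

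Same-numbered CTR and CAC libraries correlated by -0.02 to 0.04 in their deviations, which did not show that the numbers pair mice. With the replicate block, 0 members were called, and Dnajb9 was -0.017. Replicate libraries differed by more than sampling noise (chi-square per degree of freedom of 4.31 to 10.1). Low counts limit the 12 genes under the filter, where 4 against 4 libraries cannot give an exact p below 0.0286.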
